A study of Homo sapiens with 8 samples.

Results

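The DNA replication genes examined here are 52 genes that encode the proteins of replication origins, the replicative helicase, the polymerases, the sliding clamp and the enzymes that supply deoxynucleotides. They were chosen by name, with earlier results of these data known. Each of the 52 was found in exactly 1 of the 20165 rows of the RNA-seq count tables, by matching the transcripts of that row to gene symbols. The row of POLD1 also holds transcripts of SPIB, so reads of these genes cannot be told apart. RNA was sequenced from OVCAR3, an ovarian cancer cell line, in 4 groups of 2 libraries. In the first experiment, OVCAR3 cells received 30 nM of a control siRNA (siControl) or of an siRNA against TARG1 (siTARG1) for 48 h. TARG1, whose gene symbol is OARD1, removes mono(ADP-ribose) from proteins. Which TARG1 siRNA was sequenced is not given in the sources used here. In the second experiment, OVCAR3 cells carried a Dox-inducible shRNA that depletes endogenous RACK1, together with a Dox-inducible RACK1 cDNA, either wild type (RACK1-WT) or mutated at its sites of MARylation (RACK1-Mut). Both lines were made by viral transduction and drug selection and were treated with 1 µg/ml of Dox for 48 h. RACK1 is a scaffold protein of the small ribosomal subunit. The control of each experiment answers for that experiment only, because siRNA-treated cells carried neither vector and received no Dox. The study's methods state that its sequencing experiments used independent biological samples. The labels do not say which cultures the libraries came from.

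DNA replication starts at origins. The origin recognition complex (ORC), CDC6 and CDT1 load the MCM2-7 helicase on DNA in G1 phase, and this step is called licensing. In S phase, the kinase DBF4-CDC7 and other factors convert MCM2-7, CDC45 and GINS into the active helicase. Polymerase alpha-primase then lays down primers, polymerases delta and epsilon extend them, and PCNA, loaded by RFC, holds the polymerases on DNA. Many of these genes are transcribed together at the boundary of G1 and S phase under control of E2F transcription factors.

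The 8 libraries held between 30989049 and 42668783 exon counts. Each member had between 323 and 15819 counts in every library, so all 52 passed the filter on low counts and none depended on a group in which it was high. OARD1 was at 48.5 and 52 CPM (counts divided by TMM-scaled library sizes) in the siControl libraries and at 3.1 and 3.97 CPM in the siTARG1 libraries. Its log2 fold change was -3.83 ± 0.12 (SE, n = 2 per group, adjusted p = 1.2e-10). Markers of ovarian carcinoma summed to between 2510 and 4060 CPM. Their sum was lower in siTARG1 than in siControl libraries (2510 to 2650 against 3910 to 4060 CPM). Much of the sum came from the keratins KRT8 and KRT18. Their means were 1160 and 1290 CPM in siControl and 549 and 520 CPM in siTARG1 libraries. Past an adjusted p of 0.05 in edgeR, 6 of 10 markers were lower and 1, CDH1, was higher (70% called, beside 46.6% of all genes). PAX8, EPCAM and MECOM did not pass. Markers of leukocytes, endothelium and fibroblasts did not exceed 8.54 CPM in sum in any library, and their part in the results was not tested.

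Levels of the 52 genes, scaled for the exon length given with the counts, spanned a wide range, and their order depends on that length. MCM7 was highest in siControl cells, with 130 CPM per kb, followed by RRM2 and TK1 with 86.4 and 85.5 CPM per kb. POLA2, the accessory subunit of polymerase alpha, was lowest with 3.42 CPM per kb. Over all 52 genes together, the summed level was 3560 and 3500 CPM in siControl, 3980 and 3820 CPM in siTARG1, 3400 and 3460 CPM in RACK1-WT, and 3300 and 3290 CPM in RACK1-Mut libraries.

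The question of the first comparison was which replication genes change their RNA level when TARG1 is depleted. In siTARG1 cells, 27 of the 52 genes changed past an adjusted p of 0.05 in edgeR's quasi-likelihood test (51.9%, beside 46.6% of the 14024 genes tested). The direction was uneven, since 20 rose (38.5%, beside 23.5% of all genes) and 7 fell (13.5%, beside 23.1%). The genes were chosen with earlier results of these data known, so these shares describe the list and do not test it. ORC6, MCM3 and WDHD1 rose most, by 1.97-fold, 1.86-fold and 1.85-fold. RPA2 fell most, to 0.599 of its siControl level. The median log2 fold change of the 52 genes was 0.13, beside 0.01 for all genes tested, and single genes lay between -0.74 and 0.98. The 2 libraries of siTARG1 lay wholly above or wholly below those of siControl for 43 of the 52 genes (32 above and 11 below), which is 82.7%, beside 70.0% of all genes. In RNA of a whole culture, a change in the share of cells that are in S phase and a change of RNA per cell cannot be told apart.

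**Figure D1:**
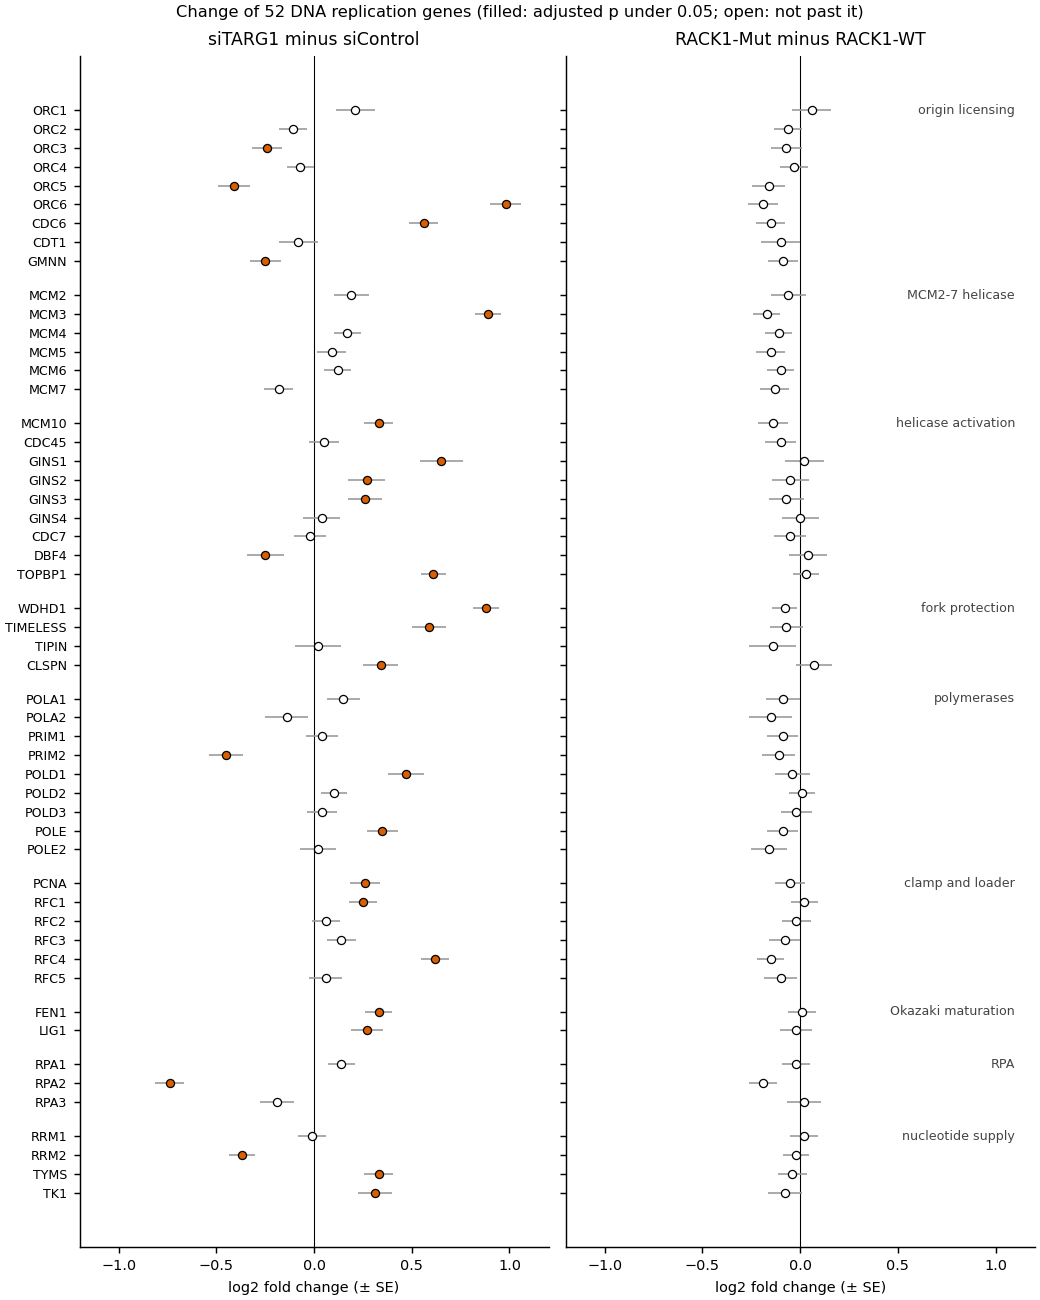
Log2 fold change with its standard error (x axis) of the 52 replication genes (y axis, grouped by role) in siTARG1 against siControl (left) and RACK1-Mut against RACK1-WT (right), with filled points past an adjusted p of 0.05. On the left 20 genes rose and 7 fell, with ORC6 (0.98) and RPA2 (-0.74) at the ends, and on the right no point is filled and all lie between -0.19 and 0.07.

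The promoters of these genes were examined for shared letters. RefSeq promoters (GRCh38.p14, from 250 bases before to 50 bases after a start site) were given for 46 of the 52 genes. An E2F motif (TTTCCCGC, TTTGGCGC or TTTCGCGC, on either strand) was found in 23 of the 46 genes, or 50%, beside 4.53% of 15842 protein-coding genes. Its shorter form, the same letters without the first T and thus part of every match of the longer form, was present in 76.1% of members and in 17.7% of protein-coding genes. Stretches of 60 bases that end before the start site are shown for genes that rose (MCM3, PCNA, TYMS), that fell (GMNN, ORC3, RRM2) or that did not pass the test (MCM6, TIPIN) in siTARG1 cells. They were chosen after the changes were known, from promoters with a match, to set the motif beside each direction. RRM2 has the shorter form only. No match of either form was found in DBF4, ORC5 and PRIM2, which fell, or in FEN1, MCM10, ORC6 and POLD1, which rose. Each stretch is written 5′ to 3′ on the strand of the gene, with matches of the shorter form in capitals.
MCM3, chr6:52284876-52284935, minus strand: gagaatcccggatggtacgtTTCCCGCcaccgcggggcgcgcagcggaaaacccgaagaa
PCNA, chr20:5126648-5126707, minus strand: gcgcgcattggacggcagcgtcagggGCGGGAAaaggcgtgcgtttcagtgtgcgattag
TYMS, chr18:657580-657639, plus strand: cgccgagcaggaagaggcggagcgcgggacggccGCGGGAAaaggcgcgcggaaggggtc
GMNN, chr6:24775308-24775367, plus strand: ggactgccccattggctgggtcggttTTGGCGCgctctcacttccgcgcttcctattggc
ORC3, chr6:87590075-87590134, plus strand: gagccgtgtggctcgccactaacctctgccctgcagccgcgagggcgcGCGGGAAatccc
RRM2, chr2:10122350-10122409, plus strand: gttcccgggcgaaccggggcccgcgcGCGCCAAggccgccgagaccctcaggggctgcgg
MCM6, chr2:135876518-135876577, minus strand: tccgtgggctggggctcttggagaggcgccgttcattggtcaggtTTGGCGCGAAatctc
TIPIN, chr15:66356716-66356775, minus strand: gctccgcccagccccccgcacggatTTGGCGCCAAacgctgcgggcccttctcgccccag

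The longer E2F motif was found in 11 of 20 genes that rose (55%), in 2 of 6 that fell (33.3%) and in 10 of 20 that did not pass the test (50%). In MCM6 and TIPIN, 2 overlapping matches form 1 run of capitals, and their log2 fold changes were 0.12 and 0.02. The CCAAT box, which binds NF-Y, was present in 58.7% of members and in 42.1% of protein-coding genes. The CHR motif (TTTGAA or TTTAAA), an element of late cell cycle genes, was present in 13.0% of members and in 24.7% of protein-coding genes. It was found in 3 of 6 genes that fell (DBF4, PRIM2 and RRM2) and in 1 of 20 that rose (TK1). A match is a description of letters and does not show that a factor binds there.

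**Figure D2:**
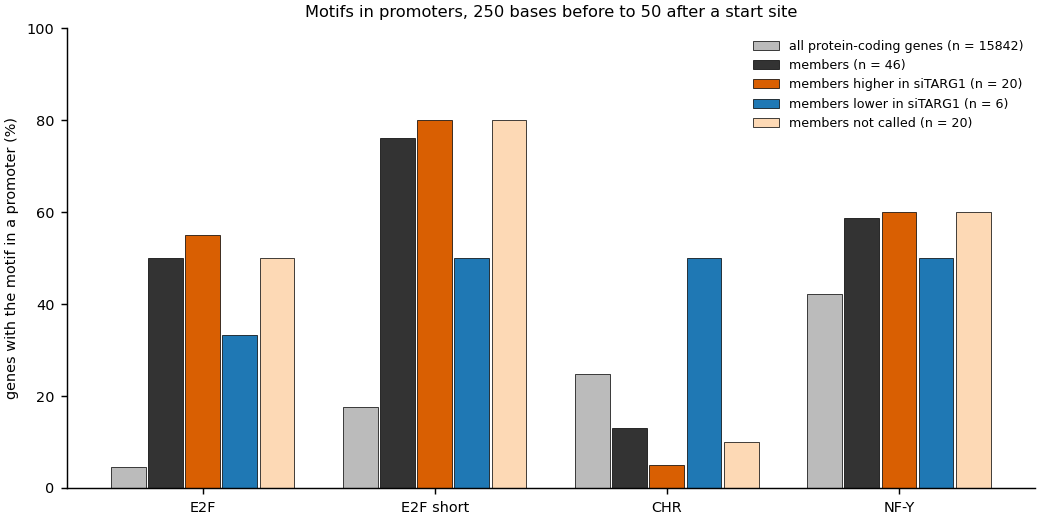
Share of genes (y axis, %) with a motif in a RefSeq promoter, for 4 motifs (x axis), in all 15842 protein-coding genes, in the 46 members with a promoter and in members that rose (20), fell (6) or did not pass the test (20) in siTARG1 cells. The longer E2F motif stands at 4.53% in all protein-coding genes and at 50% in members.

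Counts by role, given from here on, rest on 2 to 9 genes each. Of all genes tested, 46.6% passed an adjusted p of 0.05, 23.5% as higher and 23.1% as lower. The share that passed was 16.7% for MCM2-7, 33.3% for polymerases and for RPA, and 50% for clamp and loader. It was 55.6% for licensing, 66.7% for helicase activation, 75% for fork protection and for nucleotide supply, and 100% for Okazaki maturation. Of the 9 licensing genes, ORC6 and CDC6 rose, while ORC5, GMNN and ORC3 fell. ORC6 (ENSG00000091651, GRCh37 chr16:46723555-46732306, plus strand) encodes the smallest ORC subunit. It was at 19.9 and 19.4 CPM in siControl libraries and at 39.7 and 37.6 CPM in siTARG1 libraries, so the groups lay far apart (log2 fold change 0.98 ± 0.08, SE, adjusted p = 3.4e-07). CDC6 (ENSG00000094804, chr17:38444131-38460909, plus strand), the ATPase that loads MCM2-7, was at 29.9 and 31.0 CPM in siControl and at 45.6 and 43.9 CPM in siTARG1 libraries (0.56 ± 0.074, adjusted p = 3.1e-05). Levels of ORC5, another ORC subunit, were lower, with 44.9 and 42.4 CPM in siControl against 30.8 and 35 CPM in siTARG1 libraries (-0.41 ± 0.082, adjusted p = 9.5e-04). GMNN encodes geminin, the inhibitor of CDT1, and was at 29.0 and 30.9 CPM in siControl and at 25.7 and 24.6 CPM in siTARG1 libraries (-0.25 ± 0.079, adjusted p = 0.018). ORC3 had a log2 fold change of -0.24 (adjusted p = 0.020). The other 4 genes did not pass the test, with log2 fold changes of 0.21 for ORC1, -0.07 for ORC4, -0.08 for CDT1 and -0.11 for ORC2. Summed over the 9 genes, the level was nearly equal in both groups (342 ± 1.8 and 345 ± 2.5 CPM, SD, n = 2).

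In the MCM2-7 helicase, a ring of 6 related subunits, MCM3 was the only subunit past the threshold in siTARG1 cells. MCM3 (ENSG00000112118, chr6:52128812-52149679, minus strand) was at 105 and 97.8 CPM in siControl and at 196 and 180 CPM in siTARG1 libraries (0.89 ± 0.069, adjusted p = 1.9e-07). The other subunits had log2 fold changes between -0.18 (MCM7) and 0.19 (MCM2), with adjusted p between 0.053 and 0.37. MCM4 had the adjusted p of 0.053. It was at 114 and 106 CPM in siControl and 128 and 120 CPM in siTARG1 libraries, and it passed the threshold under 5 of the other settings tried, with adjusted p of 0.026 when only reads in the coding sequence were counted. MCM2 passed with coding-sequence reads (0.21 ± 0.078, adjusted p = 0.037), and MCM7 passed as lower under 3 other settings.

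Of the 9 genes that turn the loaded helicase into an active one, 5 rose and 1 fell. GINS1 (ENSG00000101003, chr20:25371644-25433336, plus strand), a subunit of the GINS complex, was at 16.7 and 19.5 CPM in siControl and at 27.2 and 29.4 CPM in siTARG1 libraries (0.65 ± 0.11, adjusted p = 2.1e-04). TOPBP1 (ENSG00000163781, chr3:133317019-133381224, minus strand) helps to bring GINS to origins and activates the checkpoint kinase ATR. It was at 153 and 156 CPM in siControl and at 230 and 240 CPM in siTARG1 libraries (0.61 ± 0.065, adjusted p = 4.3e-06). MCM10, which acts as the helicase starts to unwind DNA, was at 35.5 and 36.0 CPM in siControl and at 43.3 and 46.5 CPM in siTARG1 libraries (0.33 ± 0.076, adjusted p = 0.0027). GINS2 was at 35 and 33.6 CPM in siControl and at 45.4 and 37.5 CPM in siTARG1 libraries (0.27 ± 0.095, adjusted p = 0.030). The siTARG1 libraries were uneven for GINS2, and both lay above those of siControl. GINS3 rose too (log2 fold change 0.26, adjusted p = 0.031), and DBF4, the activating subunit of the CDC7 kinase, fell (-0.25, adjusted p = 0.042). CDC45, GINS4 and CDC7 had log2 fold changes of 0.05, 0.04 and -0.02 and did not pass.

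Of the 4 genes that stabilize the moving fork, 3 rose and none fell. WDHD1 (ENSG00000198554, chr14:55405667-55493823, minus strand), also called AND-1, couples the helicase to polymerase alpha. It was at 69.9 and 67.8 CPM in siControl and at 125 and 129 CPM in siTARG1 libraries (0.88 ± 0.066, adjusted p = 1.4e-07). TIMELESS (ENSG00000111602, chr12:56810147-56843210, minus strand), a fork protection factor, was at 51.3 and 51.8 CPM in siControl and at 78.7 and 76.0 CPM in siTARG1 libraries (0.59 ± 0.087, adjusted p = 8.7e-05). CLSPN, the mediator of checkpoint signals at forks, was at 39.3 and 42.9 CPM in siControl and at 47.9 and 56.0 CPM in siTARG1 libraries (0.34 ± 0.09, adjusted p = 0.0070). TIPIN, the partner of TIMELESS, was at 12.7 and 10.6 CPM in siControl and at 12.8 and 10.9 CPM in siTARG1 libraries, and these overlapped. In sum, the 4 genes were at 173 ± 0.0856 CPM in siControl and at 268 ± 5.7 CPM in siTARG1 libraries (SD, n = 2), a ratio of 1.55.

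Among the 9 polymerase genes, the catalytic subunits of polymerases delta and epsilon rose and the large primase subunit fell. The row of POLD1, which includes SPIB, was at 50.1 and 45.5 CPM in siControl and at 71.6 and 60.6 CPM in siTARG1 libraries (0.47 ± 0.091, adjusted p = 8.0e-04). POLE was at 49.8 and 50.5 CPM in siControl and at 66.6 and 61.5 CPM in siTARG1 libraries (0.35 ± 0.079, adjusted p = 0.0022). PRIM2 was at 33.7 and 29.5 CPM in siControl and at 24.1 and 22.4 CPM in siTARG1 libraries (-0.45 ± 0.087, adjusted p = 7.9e-04). The accessory subunits POLD2, POLD3 and POLE2, together with POLA1, POLA2 and PRIM1, had log2 fold changes between -0.14 and 0.15 and did not pass.

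At the clamp and its loader, 3 of 6 genes rose and none fell. RFC4 (ENSG00000163918, chr3:186507669-186524847, minus strand), a small loader subunit, was at 31.2 and 30.6 CPM in siControl and at 48.1 and 46.9 CPM in siTARG1 libraries (0.62 ± 0.072, adjusted p = 9.1e-06). PCNA, the clamp itself, was at 73.2 and 70.6 CPM in siControl and at 88.8 and 82.9 CPM in siTARG1 libraries (0.26 ± 0.078, adjusted p = 0.015). RFC1, the large loader subunit, was at 114 and 122 CPM in siControl and at 135 and 145 CPM in siTARG1 libraries (0.25 ± 0.07, adjusted p = 0.010). RFC2, RFC3 and RFC5 had log2 fold changes of 0.06, 0.14 and 0.06 and did not pass. Both genes of Okazaki fragment maturation rose. FEN1, the flap nuclease, was at 150 and 140 CPM in siControl and at 191 and 175 CPM in siTARG1 libraries (0.33 ± 0.07, adjusted p = 0.0014). LIG1, the ligase that seals the fragments, was at 73.0 and 68.9 CPM in siControl and at 92.5 and 78.9 CPM in siTARG1 libraries (0.27 ± 0.083, adjusted p = 0.014).

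In RPA, which coats single-stranded DNA, 1 of 3 subunits fell and none rose. RPA2 (ENSG00000117748, chr1:28218035-28241257, minus strand) was at 90.4 and 85.5 CPM in siControl and at 53.5 and 51.8 CPM in siTARG1 libraries (-0.74 ± 0.072, adjusted p = 1.7e-06). RPA1 had a log2 fold change of 0.14 and RPA3 of -0.19, and neither passed. Among the 4 genes of nucleotide supply, TYMS and TK1 rose and RRM2 fell. TYMS, thymidylate synthase, was at 31.3 and 30.3 CPM in siControl and at 38.1 and 39.5 CPM in siTARG1 libraries (0.33 ± 0.076, adjusted p = 0.0028). TK1, thymidine kinase, was at 144 and 134 CPM in siControl and at 190 and 155 CPM in siTARG1 libraries (0.31 ± 0.087, adjusted p = 0.0093). RRM2, the small subunit of ribonucleotide reductase, was at 274 and 291 CPM in siControl and at 213 and 224 CPM in siTARG1 libraries (-0.37 ± 0.067, adjusted p = 4.3e-04). RRM1, its large subunit, was at 145 and 134 CPM in siControl and at 145 and 132 CPM in siTARG1 libraries.

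**Figure D3:**
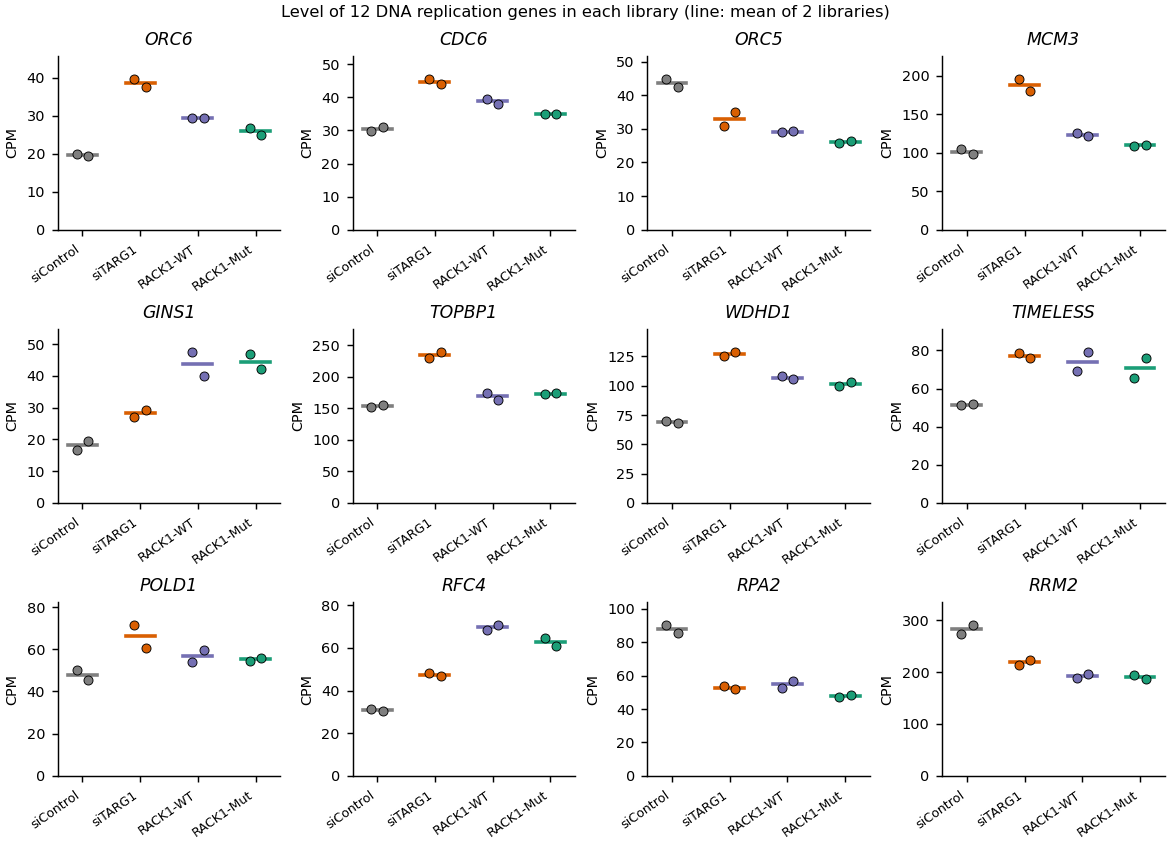
Level (y axis, CPM, from 0) of 12 replication genes in each of the 8 libraries (points) by group (x axis), with a line at the mean of the 2 libraries of a group. ORC6 was at 19.6 CPM in siControl and at 38.7 CPM in siTARG1 libraries on average, whereas RPA2 fell from 87.9 to 52.6 CPM on average.

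The shares of subunits within a complex differed between siControl and siTARG1 libraries. Their size depends on the exon length given with the counts, and the same length was used for every library. As a share of the counts per kb of exon over ORC1 to ORC6, ORC6 made up 13.8% and 13.7% in siControl and 27.6% and 25.4% in siTARG1 libraries, while ORC5 made up 25.9% and 24.9% against 17.8% and 19.6%. Within MCM2-7, MCM3 made up 13.0% and 13.1% in siControl and 22.1% and 22.4% in siTARG1 libraries, and MCM7 51.6% and 51.7% against 42.1% and 41.2%. Shares within a complex are tied, so a rise of MCM3 alone lowers the share of MCM7. MCM7 itself did not pass the edgeR test (-0.18, adjusted p = 0.059). Within RPA, the share of RPA2 was 56.7% and 58.3% in siControl and 45.4% and 44.9% in siTARG1 libraries. The log2 fold changes of subunits of 1 complex spanned 1.39 in ORC, 1.07 in MCM2-7, 0.88 in RPA, 0.61 in GINS, 0.60 in polymerase alpha-primase and 0.56 in RFC. The same spans in RACK1-Mut against RACK1-WT cells were between 0.06 and 0.25. Changes were also larger in siTARG1 over all genes tested. There the median size of a log2 fold change was 0.28 in siTARG1 and 0.07 in RACK1-Mut cells. For the 52 members it was 0.24 and 0.07. Spans of other sets of genes were not computed. All of these values are from mRNA and say nothing of the proteins.

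**Figure D4:**
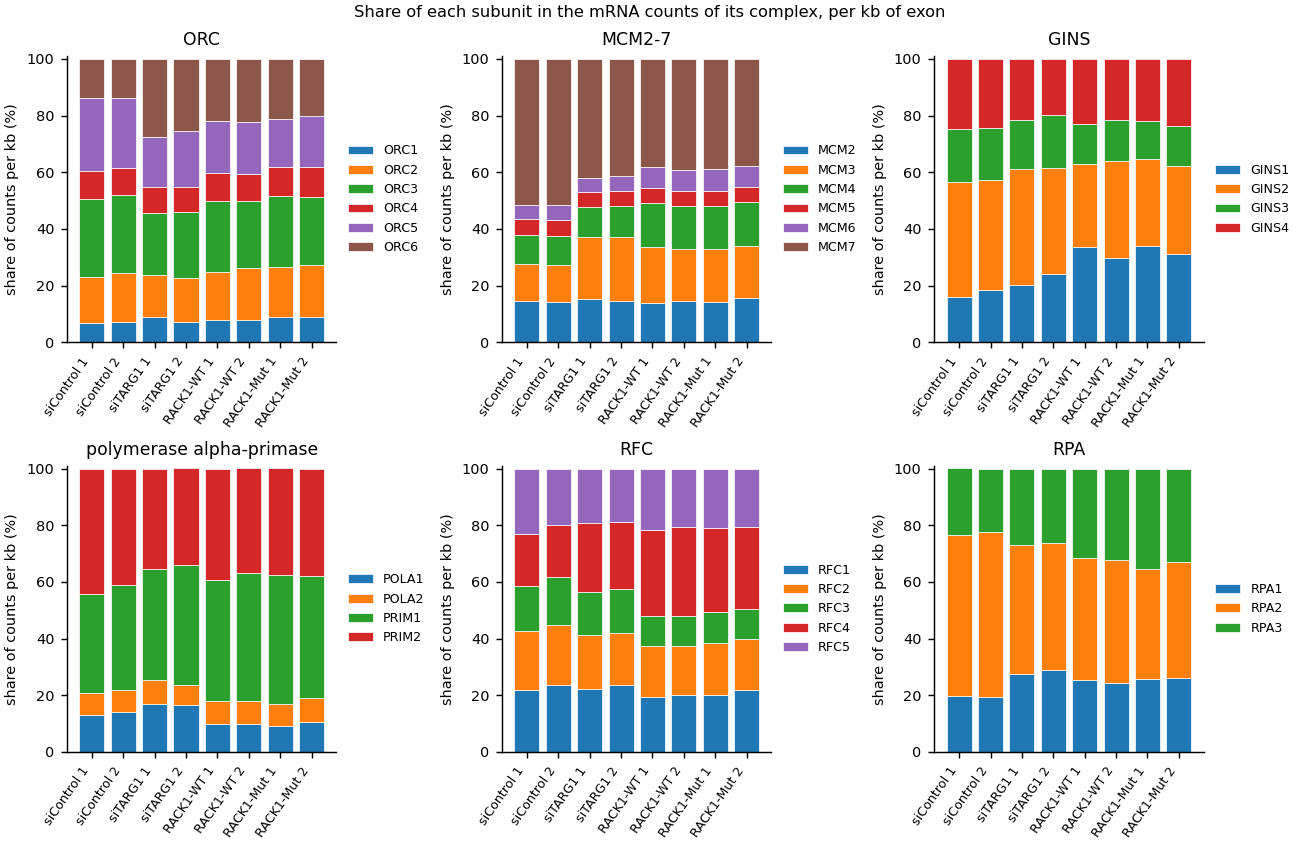
Share (y axis, %) of each subunit in the counts per kb of exon of its complex, as stacked bars for each of the 8 libraries (x axis), for 6 complexes. In siTARG1 libraries ORC6 takes 27.6% and 25.4% of ORC and MCM3 22.1% and 22.4% of MCM2-7, against 13.8% and 13.7% and 13.0% and 13.1% in siControl libraries.

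Not all calls were equally firm. The calls of 13 of the 27 genes were kept under every setting tried, namely ORC5, ORC6, CDC6, MCM3, GINS1, TOPBP1, WDHD1, TIMELESS, POLE, RFC4, FEN1, RPA2 and RRM2. Another 10 were lost when 1 library was left out. GINS2 and ORC3 lost the call without siControl replicate 1, siControl replicate 2 or siTARG1 replicate 1 (adjusted p up to 0.30 and 0.13). GMNN lost it without siControl replicate 2 or siTARG1 replicate 2 (up to 0.15), and GINS3 without any of the 4 libraries (up to 0.11). DBF4, PCNA, LIG1 and TK1 lost it without siControl replicate 2 or siTARG1 replicate 1 (up to 0.46, 0.076, 0.15 and 0.12). CLSPN and RFC1 lost it without siControl replicate 1 or siTARG1 replicate 2 (up to 0.073 and 0.090). These 10 were lost under other settings too. All 10 were lost when reads of the 3′ untranslated region alone were counted. GINS2, GINS3, GMNN and DBF4 were lost in a fit to the 4 libraries compared. GINS3 was also lost by DESeq2 and with coding-sequence reads. The calls of MCM10, PRIM2, POLD1 and TYMS were lost only when reads of the 3′ untranslated region alone were counted.

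Reads in the coding sequence and in the 3′ untranslated region were also counted apart. All 27 genes had the same sign in both regions. ORC6 had a log2 fold change of 1.00 ± 0.094 in the coding sequence and of 0.97 ± 0.13 in the 3′ untranslated region (SE). For MCM3 the values were 0.91 ± 0.069 and 0.92 ± 0.099, and for RPA2 they were -0.71 ± 0.072 and -0.78 ± 0.11. WDHD1 had 0.85 ± 0.067 in the coding sequence and 1.18 ± 0.13 in the 3′ untranslated region. CLSPN had 0.36 ± 0.091 in its coding sequence, whereas its 3′ untranslated region, with 30 to 72 counts per library, had 0.10 ± 0.23.

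Genes outside the 52 that control or accompany replication were read in the same fit. Of 18 genes of E2F and cyclin control, 8 rose and 4 fell (66.7% called, beside 46.6% of all genes, median 0.18). E2F1, an activator of replication genes, had a log2 fold change of 0.64 ± 0.075 (adjusted p = 1.0e-05), and CCNE1, which encodes cyclin E1, had 0.44 ± 0.066 (adjusted p = 9.2e-05). TFDP1 and TFDP2, the dimer partners of E2F, fell (-0.27 and -0.29, adjusted p = 0.0039 and 0.0022). These 4 were named after their values were seen. Of 31 other replication factors tested, 7 rose and 7 fell (45.2% called, median 0.06). Of 12 other genes of nucleotide supply, 3 rose and 1 fell (33.3% called). RRM2B, the p53-inducible small subunit of ribonucleotide reductase, was at 14.3 and 16.0 CPM in siControl and at 27.3 and 30.7 CPM in siTARG1 libraries (0.94 ± 0.089, adjusted p = 1.4e-06), so it rose where RRM2 fell. Of 9 genes of chromatin replication, 4 rose and 1 fell (55.6% called).

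None of 18 mitotic genes rose and 14 fell (77.8%, beside 23.1% of all genes, median -0.35), and all 18 had log2 fold changes below 0. Of 65 replication-dependent histone genes listed, 50 were tested, 13 fell and none rose (median -0.12). The 13 are 26% of those tested, near the 23.1% of all genes that fell. H2BC4 was at 6.95 and 7.91 CPM in siControl and at 3.31 and 3.92 CPM in siTARG1 libraries (-1.03 ± 0.14, adjusted p = 2.8e-05). Histone genes are near-identical copies, and reads that match many places were kept, so their counts are uncertain. Of 12 targets of p53, 6 rose and 3 fell (75% called, median 0.27). CDKN1A, which encodes the inhibitor p21 of cyclin-dependent kinases, was at 29.9 and 27.3 CPM in siControl and at 5.16 and 5.17 CPM in siTARG1 libraries (-2.47 ± 0.11, adjusted p = 1.6e-09). FAS, a death receptor, was at 95 and 96.5 CPM in siControl and at 30.9 and 33.5 CPM in siTARG1 libraries (-1.57 ± 0.08, adjusted p = 4.6e-09). GDF15, a stress-induced cytokine, was at 4.26 and 2.49 CPM in siControl and at 8.66 and 5.91 CPM in siTARG1 libraries (1.08 ± 0.22, adjusted p = 0.0013).

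The second comparison asked whether replication genes differ between cells with RACK1-Mut and cells with RACK1-WT. The lines also differed in RACK1 RNA, endogenous and introduced together, which was at 1760 and 1900 CPM in RACK1-WT and at 1400 and 1450 CPM in RACK1-Mut libraries. These did not overlap (-0.36 ± 0.076, unadjusted p = 3.3e-04, adjusted p = 0.30, edgeR), and the part of the RACK1 level in this comparison was not tested. None of the 52 passed an adjusted p of 0.05 in RACK1-Mut against RACK1-WT cells by edgeR, and none did by DESeq2. In all, 1 of the 14024 genes passed by edgeR (0.00713%) and 17 by DESeq2. At an unadjusted p under 0.05 there were 4 of 52 (7.69%), beside 4.9% of all genes. The 52 log2 fold changes lay between -0.19 and 0.07, with standard errors between 0.065 and 0.12. Their median was -0.07, beside 0.00 for all genes, and 41 of the 52 were below 0. RACK1-Mut libraries lay wholly below those of RACK1-WT for 25 genes (48.1%, beside 18.5% of all genes) and wholly above for 1, ORC1 (1.92%, beside 19.3%). With either direction counted, 26 of 52 did not overlap (50%, beside 37.8% of all genes). With 2 libraries a group, single genes were thus not shown to differ.

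The genes with the lowest p in RACK1-Mut cells were RPA2, MCM3 and ORC6. RPA2 was at 52.4 and 57.0 CPM in RACK1-WT and at 47.5 and 48.3 CPM in RACK1-Mut libraries (-0.19 ± 0.073, adjusted p = 0.94, edgeR). MCM3 was at 125 and 122 CPM in RACK1-WT and at 109 and 110 CPM in RACK1-Mut libraries (-0.17 ± 0.069). ORC6 was at 29.5 and 29.5 CPM in RACK1-WT and at 26.7 and 25 CPM in RACK1-Mut libraries (-0.19 ± 0.079). The libraries of these 3 genes did not overlap, and the differences did not pass the correction over all genes. All 6 MCM2-7 subunits had log2 fold changes below 0 in RACK1-Mut cells, between -0.17 and -0.06, and none passed the test. For MCM2 the libraries overlapped, and its log2 fold change was 0.04 without RACK1-Mut replicate 1. The summed level of the 6 subunits was 703 ± 21.8 CPM in RACK1-WT and 647 ± 14.2 CPM in RACK1-Mut libraries (SD, n = 2, not tested). For the fork protection genes the sums were 230 ± 2.65 and 222 ± 10.9 CPM, which differed by less than the spread.

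**Figure D5:**
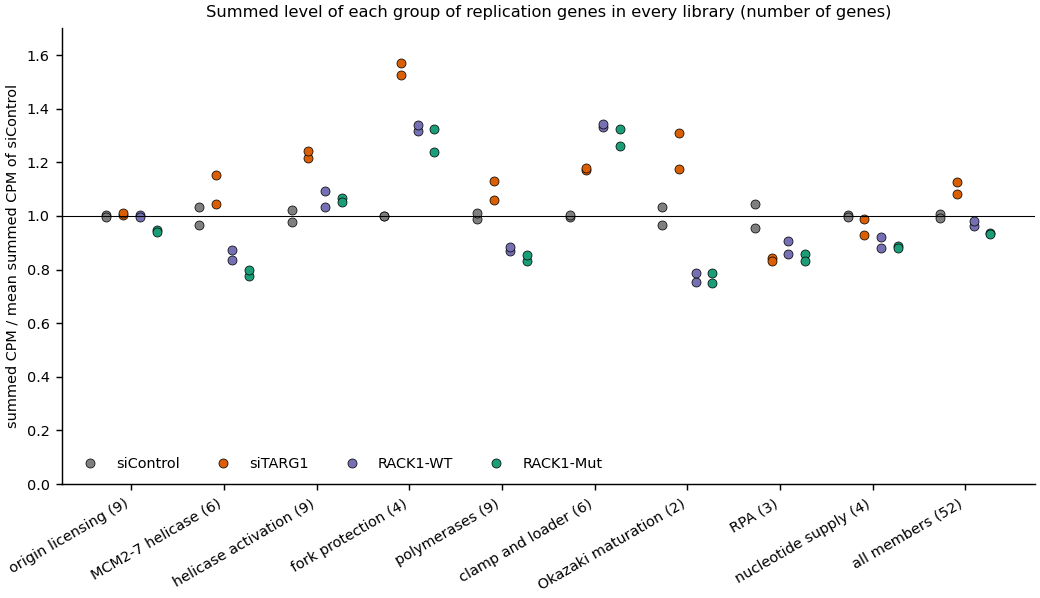
Summed CPM of each group of replication genes in each of the 8 libraries (points), divided by the mean of the siControl libraries (y axis, from 0), for 9 roles and all 52 genes (x axis, number of genes in brackets). Fork protection stands at 1.55 and RPA at 0.838 in siTARG1 cells on average, and all 52 genes together at 1.11.

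The effects of the experiments were also set against each other in the same fit, as the log2 fold change in siTARG1 against siControl minus that in RACK1-Mut against RACK1-WT. For 18 of the 52 genes this difference passed an adjusted p of 0.05 (34.6%, beside 32.4% of all genes). It was above 0 for 16 (30.8%, beside 16.1%) and below 0 for 2, RPA2 and RRM2 (3.85%, beside 16.3%). Of the 18, 7 passed under every setting tried (ORC6, CDC6, MCM3, GINS1, WDHD1, POLE and RPA2). The differences were largest for ORC6 (1.17 ± 0.11, adjusted p = 4.3e-06), MCM3 (1.07 ± 0.097, adjusted p = 2.6e-06) and WDHD1 (0.96 ± 0.092, adjusted p = 4.0e-06). RPA2 had a log2 fold change below 0 in both comparisons, but it passed the threshold in siTARG1 cells only. Its difference was -0.55 ± 0.10 (adjusted p = 0.0010).

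Levels in the 2 experiments stand side by side without a test, because line, vector, Dox and experiment cannot be told apart. All 4 libraries of the RACK1 lines lay above all 4 siRNA libraries for 13 of the 52 genes (25%, beside 26.8% of all genes) and below them for 14 (26.9%, beside 26.6%). GINS1 and RFC4 were 2.42 and 2.25 times as high in RACK1-WT as in siControl cells. POLD2 and MCM7 were at 0.594 and 0.621 of their siControl level. The siTARG1 levels of GINS1 (27.2 and 29.4 CPM) and RFC4 (48.1 and 46.9 CPM) thus lay between those of siControl and RACK1-WT cells, where GINS1 was at 47.6 and 39.9 CPM and RFC4 at 68.4 and 70.8 CPM. For ORC6, MCM3, WDHD1 and TOPBP1, the siTARG1 libraries were the highest of all 8. The same held for other members, among them CDC6, MCM10, POLE and FEN1. For GMNN and PRIM2, the siTARG1 libraries were the lowest of all 8. How many members, or how many of all genes, do either was not counted.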

How the data were processed

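Total RNA came from the input of the study's ribosome profiling of OVCAR3 cells, which were lysates not digested with RNase. It was depleted of rRNA and sequenced as stranded libraries, 2 per group. The authors filtered reads with Bowtie 1.1.2, aligned them with TopHat 2.1.1 to GRCh37 and Gencode release 24, and counted alignments of 25 to 51 bases with Plastid for exons, coding sequence and untranslated regions. The deposited values used here are estimated counts without normalization, many of them with decimals. The authors also deposited RPKM, which were read for reference only. Reads with up to 64 matches were kept, so counts of genes with pseudogenes or near-identical copies are uncertain.

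Exon counts were rounded and tested with edgeR 4.0.16 (quasi-likelihood, TMM, filterByExpr, 4 residual degrees of freedom, limma 3.58.1, R 4.3.3), with Benjamini-Hochberg adjustment over 14024 genes. SE is the size of the change on the log2 scale over the root of the F value. Transcripts were named with Gencode release 44 on GRCh37 (94.9% matched). Promoters were RefSeq's. Python 3.11.15, pandas 2.3.3, numpy 2.4.6 and matplotlib 3.10.9 were used. The test was tested on simulated data.

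Genes named with values are, per role, up to 4 past the threshold in siTARG1 with libraries that do not overlap, the 3 with the lowest p in RACK1-Mut, the 5 other genes with the largest change, and OARD1. MCM4, TIPIN, RRM1, RACK1, the sums and a few other genes outside this rule were given values after these were seen. Members, roles and lists were chosen with earlier results of these data known. Alternatives were DESeq2 1.42.0, RLE, a minimum of 10 counts per library or no filter, a fit to the 4 libraries compared, a block for the replicate number, summing rows of 1 symbol, coding-sequence reads and leaving out each library. Reads of the 3′ untranslated region were added after the data were seen. Ribosome profiling was not analysed here.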

Additional observations from a re-analysis of the deposited data

Results flagged for a closer look

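For 18 of the 52 replication genes the change in siTARG1 against siControl differed from that in RACK1-Mut against RACK1-WT. This share, 34.6%, is near the 32.4% of all genes. The experiments also differ in line, vector and Dox, so the difference cannot be credited to TARG1 or RACK1 alone. None of the 52 passed in RACK1-Mut cells on its own. The test was of the difference itself, in the fit over all 14024 genes. The differences are on the log2 scale, siTARG1 against siControl minus RACK1-Mut against RACK1-WT. They were 1.17 for ORC6 and 0.71 for CDC6 among licensing genes, 1.07 for MCM3 and 0.28 for MCM4 in the helicase, and 0.46 for MCM10, 0.63 for GINS1 and 0.57 for TOPBP1 in its activation. They were 0.96 for WDHD1 and 0.65 for TIMELESS at the fork, 0.50 for POLD1 and 0.44 for POLE among polymerases, and 0.31 for PCNA, 0.77 for RFC4 and 0.32 for FEN1 behind them. For TYMS and TK1 they were 0.37 and 0.39, and for RPA2 and RRM2 -0.55 and -0.35. MCM4 passed neither comparison on its own (0.17 ± 0.068 and -0.11 ± 0.068, SE), and its difference had an adjusted p of 0.041. Of the 18, 7 passed under every setting tried (ORC6, CDC6, MCM3, GINS1, WDHD1, POLE and RPA2). MCM10, TOPBP1, TIMELESS and RFC4 no longer passed only when reads of the 3′ untranslated region alone were counted (adjusted p of 0.10, 0.055, 0.063 and 0.11). The other 7 no longer passed when 1 library was left out. For MCM4 these were every library except siControl replicate 1 and siTARG1 replicate 2, and for PCNA every library except siTARG1 replicate 2 and RACK1-Mut replicate 1. For FEN1 they were siControl replicate 2, siTARG1 replicate 1, both RACK1-WT libraries or RACK1-Mut replicate 2, and for TK1 siControl replicate 2, siTARG1 replicate 1 or any library of the RACK1 lines. RRM2 lost the call without siControl replicate 2, RACK1-WT replicate 1 or RACK1-Mut replicate 1, TYMS without siControl replicate 2, RACK1-WT replicate 2 or RACK1-Mut replicate 1, and POLD1 without RACK1-WT replicate 2. Over all settings, the adjusted p of these 7 rose to 0.39 (MCM4), 0.49 (PCNA), 0.17 (FEN1), 0.11 (TK1), 0.15 (RRM2), 0.55 (TYMS) and 0.48 (POLD1).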

How the results depend on the processing

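No called gene changed sign under any setting. In siTARG1 cells the calls of 31 of 52 genes stayed on their side of the threshold in every setting, 14 were lost in at least 1 and 7 were gained in at least 1. The replicate numbers are not said to pair libraries, and the deviations of same-numbered libraries correlated with r = 0.256 in the siRNA and 0.0283 in the RACK1 experiment. With the replicate number as a block, 32 of 52 were called in siTARG1 cells, 0 in RACK1-Mut cells and 28, against 18 without the block, in the difference. Over all genes, the block raised the calls too, to 55.6% in siTARG1 cells and 43.8% in the difference. With reads of the 3′ untranslated region only, which are fewer, 13 were called in siTARG1 cells (10 higher, 3 lower) and 7 in the difference. Over all 12520 genes tested with these reads, 3612 were called in siTARG1 cells (28.8%) and 2050 in the difference (16.4%). Without siControl replicate 1 the median in siTARG1 cells was 0.17, and leaving out each library in turn gave 0.09 to 0.17. In RACK1-Mut cells the median was -0.06 with no filter on low counts and with 3′ untranslated reads, and -0.09 to -0.06 leaving out each library. The cause was not tested. Over all genes, RACK1-Mut calls numbered 1, but 17 with DESeq2, 15 with no filter, 49 with only the 4 libraries and 72 with the block. Each of the 52 genes had at least 323 counts in every library, and each group had 2 libraries.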
